A study of Mus musculus with 16 samples.

Results

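The 10 genes described here encode transcription factors that mark classes of midbrain neurons: Gata2, Gata3, Tal1 and Sox14, Otx2, Pou4f1, Pou4f2, Meis2, Pax7 and Foxb1. They were chosen by symbol, with earlier results of these data known, and are 10 of the 38924 genes in the files. All 10 passed the filter on low counts that left 18111 genes for testing. Polyadenylated RNA was sequenced from the periaqueductal gray, the midbrain gray matter around the aqueduct whose neurons take part in pain relief by opioids. The study addressed how morphine tolerance and RGSz1, a regulator of G protein signalling encoded by Rgs20, shape gene expression there. The 16 libraries, each from tissue punches of 2 pooled male mice, fell into 4 groups of 4: mice labelled RGSz1 KO given morphine (KO morphine), wildtype mice given morphine (WT morphine), naïve RGSz1 KO mice (KO naive) and naïve wildtype mice (WT naive). The sources used here do not give strain, age, dose or the extent of the deletion.

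These factors act largely before birth, when they set which transmitter and which territory a neuron adopts, and several stay on in the adult. Gata2 switches newborn midbrain neurons to the GABA fate, and Gata3 and Tal1, which bind DNA in shared complexes with GATA factors, act with or after it. Otx2, Pax7 and Meis2 are known for midbrain and tectal territory, and the POU factors Pou4f1 and Pou4f2 for projection neurons, among them glutamate neurons of the tectum.

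Library totals lay between 19.1 and 55.0 M (mega counts), and raw counts of the factors ranged from 28 for Foxb1 to 4130 for Meis2. Levels are given as normalised read counts per mega counts of the library (CPM). The tissue carried transcripts of GABA neurons (Gad2, 396 to 656 CPM over all libraries) and of glutamate neurons (Slc17a6, 430 to 551 CPM). Rgs20, the gene named in the genotype label, was not called between the labels (log2 difference -0.02 ± 0.07 in naïve and -0.11 ± 0.07 in morphine libraries, edgeR adjusted p = 0.943 and 0.669): it stood at 12.1 ± 0.67 CPM in KO morphine and 13.1 ± 1.04 CPM in WT morphine, and at 12.6 ± 0.95 CPM in KO naive and 12.8 ± 0.82 CPM in WT naive libraries (mean ± SD, n = 4 each). Counts per gene do not show which exons the RNA still held, so KO is the name of a label throughout, and a direction between genotypes is one between labels.

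WT naive 2, WT naive 3 and KO morphine 1 stood apart in these genes. WT naive 2 and 3 were high in Pou4f1, Pou4f2, Pax7, Meis2, Foxb1, Sox14 and Otx2 and low in Gata2, Gata3 and Tal1, against WT naive 1 and 4. KO morphine 1 held more Foxb1, Pax7, Otx2 and Pou4f2, and less Gata2, Gata3 and Tal1, than any other KO morphine library. Results are given below with all libraries and, where it changes a call, without these. As these libraries were picked for their values in these factors, an adjusted p without them is a description and no independent test. Markers of other cells differed too: the score of 9 serotonin neuron markers (mean log2 CPM centred over the libraries) was -1.10 and -0.77 in WT naive 2 and 3, against 0.67 and 0.15 in WT naive 1 and 4, and that of meningeal markers was 2.42 in WT naive 2 and 1.95 in KO morphine 3. The score of motor and cholinergic markers was -0.99 and -1.81 in WT naive 2 and 3, against 0.66 and 0.29 in WT naive 1 and 4. Of these 6 markers 4 were tested, and with morphine 0 were called in either genotype and 2 were higher on average. Their median log2 fold change with morphine was 2.53 in KO and 1.44 in wildtype libraries. Summed over 5 of the 6 markers, they gave 10.7 to 72.7 CPM in KO morphine, against 3.90 to 12.6 CPM in KO naive libraries. In wildtype they summed to 5.32 to 71.1 CPM in WT morphine, against 3.40 to 23.5 CPM in WT naive libraries. Of 8 microglia markers 5 were lower with morphine on average and 1 in each genotype. These summed to 193 to 220.4 CPM in KO morphine, against 216 to 241 CPM in KO naive libraries. In wildtype they summed to 190.2 to 205 CPM in WT morphine, against 208 to 252 CPM in WT naive libraries. The part of meningeal, motor and microglial cells in the values of the factors was not tested. The serotonin score is set beside the factors below. In such bulk samples, fewer cells of a type and less RNA per cell cannot be told apart.

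**Figure D1:**
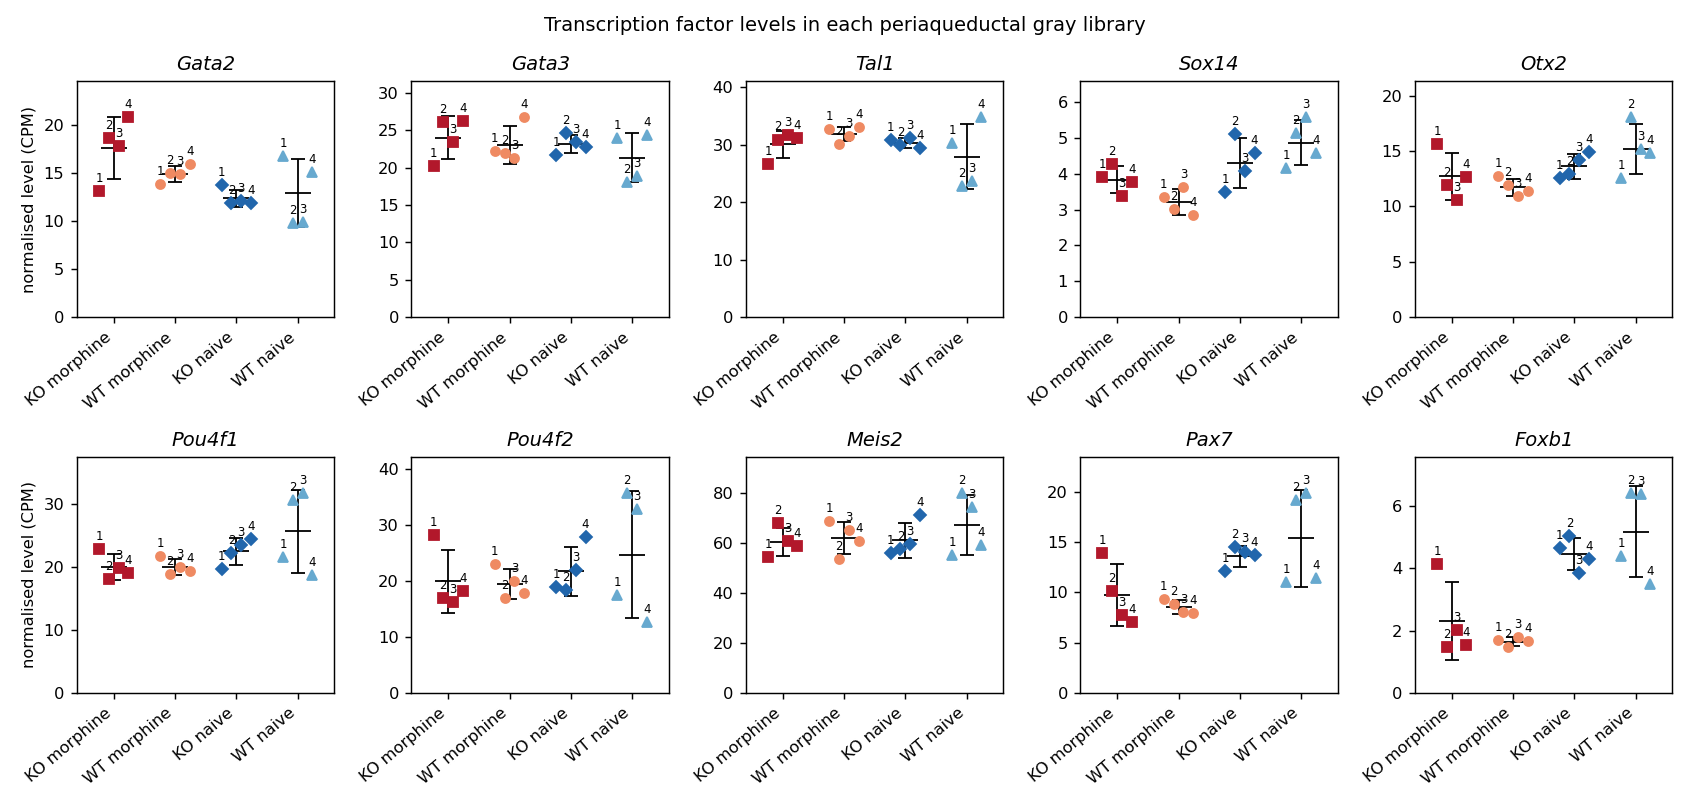
Normalised level (CPM) of each of the 10 factors in the 16 libraries, by group. Symbols are single libraries labelled with their replicate number, and bars are the mean ± SD (n = 4). Foxb1 lay at 1.46 to 1.78 CPM in WT morphine and 3.49 to 6.43 CPM in WT naive libraries, and KO morphine 1 lay near the naïve libraries.

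Per kb of exon and averaged over all 16 libraries, Tal1 was the most abundant of the 10 (6.85 ± 0.73 CPM per kb, mean ± SD), followed by Pou4f2 (6.69 ± 2.02), Gata3 (5.76 ± 0.63), Meis2 (5.21 ± 0.65) and Pou4f1 (4.72 ± 0.87 CPM per kb). Below them stood Otx2 (3.15 ± 0.47), Gata2 (2.68 ± 0.57), Pax7 (2.02 ± 0.67), Sox14 (1.97 ± 0.38) and Foxb1 (1.14 ± 0.59 CPM per kb). The steps between Pou4f1 and Otx2 and between Sox14 and Foxb1 were wider than the SD of either neighbour, and every other step was within the SD of at least one of its neighbours. The order of the first 2 differed between groups: in WT naive libraries Pou4f2 averaged 7.70 and Tal1 6.37 CPM per kb. Foxb1 varied most, its highest library at 4.41 times its lowest, while Gata3 varied least, at 1.48 times.

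With morphine, wildtype libraries had less Foxb1, Pax7 and Sox14 RNA. These 3 of the 10 factors fell and none rose (adjusted p under 0.05 in edgeR's quasi-likelihood test), where 4.41% of all tested genes were called and 2.07% were called lower. In the same 3 factors the WT morphine and WT naive libraries did not overlap, as in 5.09% of all tested genes in that direction. In the libraries labelled KO, Foxb1 alone fell, where 11.5% of all genes were called and 5.83% were called lower, and no factor had non-overlapping groups (17.1% of all genes did). Averaged over the genotypes, Foxb1, Sox14, Pax7 and Otx2 fell and Gata2 rose, where 8.03% of all genes were called lower and 9.02% higher. The median log2 fold change of the 10 factors was -0.36 in wildtype and -0.10 in KO libraries, against -0.01 and -0.00 over all tested genes. As the factors were chosen with earlier results of these data known, these counts and medians beside those of all genes are a description and no test.

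**Figure D2:**
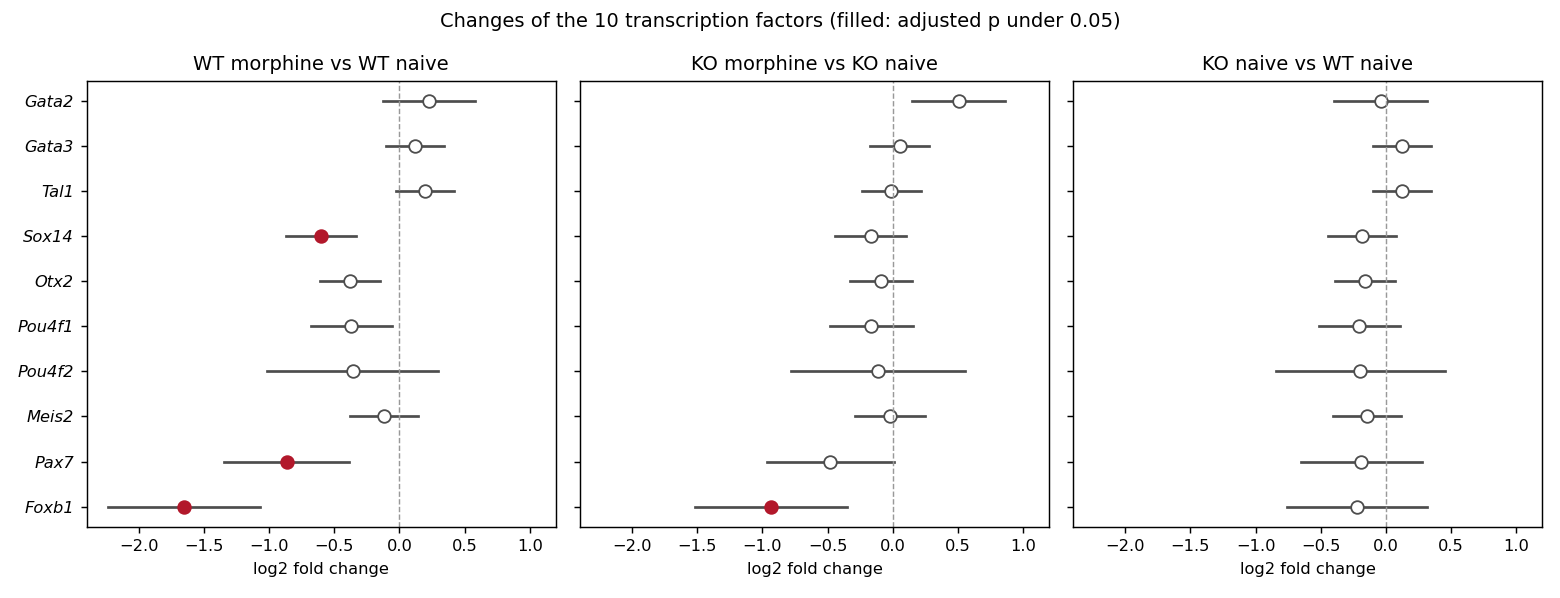
Log2 fold change of each factor with its 95% interval in 3 comparisons, from edgeR's fit of all 16 libraries; filled points passed the adjusted p of 0.05. Foxb1 lay furthest below 0 with morphine in both genotypes (-1.65 in wildtype, -0.94 in KO), and no factor passed between KO naive and WT naive libraries.

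Gata2, the zinc finger factor of the GABA fate, on chromosome 6, had 13.2, 18.7, 17.9 and 20.9 CPM in KO morphine libraries 1 to 4, against 13.7, 11.9, 12.1 and 11.9 CPM in KO naive libraries. KO morphine 2, 3 and 4 lay above every KO naive library and KO morphine 1 within their range. In wildtype Gata2 had 13.9, 15.0, 14.9 and 15.9 CPM in WT morphine, against 16.8, 9.81, 9.93 and 15.1 CPM in WT naive libraries, with the groups overlapping. Its log2 fold change with morphine was 0.51 ± 0.17 (SE) in KO libraries (edgeR adjusted p = 0.065), 0.23 ± 0.17 in wildtype (adjusted p = 0.473) and 0.37 ± 0.12 averaged (adjusted p = 0.0449). The averaged call was lost when any of 13 of the 16 libraries was left out, all but WT naive 1, WT naive 4 and KO morphine 1 (adjusted p up to 0.0905). Without WT naive 2 and 3 the averaged value was 0.21 ± 0.08 (edgeR adjusted p = 0.125) and the KO value 0.51 ± 0.11 (adjusted p = 0.00606). WT naive 2 and 3 are not part of the KO comparison: its value stayed and its SE fell, as all libraries share 1 estimate of the spread. With KO morphine 1, the lowest KO morphine library in Gata2, also left out, the values were 0.27 ± 0.06 (edgeR adjusted p = 0.00452) and 0.63 ± 0.07 (adjusted p = 4.77e-05). These are a description and no test, since the libraries were picked for such values.

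Gata2 and Gata3 are also known in serotonin neurons of the raphe, and serotonin markers also differed between these groups. All 9 markers in the list were higher in KO morphine than in KO naive libraries, with summed levels of 565 to 1753 CPM against 143 to 382 CPM. In wildtype 0 of 9 passed the same test (702.6 to 922 CPM in WT morphine, against 241 to 886 CPM in WT naive libraries; serotonin medians of 1.99 in KO and 0.72 in wildtype on the log2 scale). Tph2, the serotonin-synthesising enzyme, averaged 364 ± 223 CPM in KO morphine and 59.2 ± 34.9 CPM in KO naive libraries (SD, n = 4 each). The serotonin score and Gata2 were both highest in KO morphine 4 and lowest in different KO morphine libraries. With each group's mean removed, Gata2 and the score gave Pearson's r = 0.76 and Spearman's rho = 0.73 over the 16 libraries. Their adjusted permutation p were 0.0783 and 0.094, above the threshold. The score was 0.26, 1.37, 0.05 and 1.51 in KO morphine 1 to 4, against -0.69, -0.94, -1.87 and -0.47 in KO naive libraries. KO morphine 1 was above every KO naive library in the score but not in Gata2. In a fit that included the serotonin score, the log2 fold change of Gata2 was -0.05 ± 0.16 in KO libraries and -0.01 ± 0.11 averaged (edgeR adjusted p = 0.925 and 0.985). The score itself did not overlap between KO morphine and KO naive libraries. This fit therefore cannot fully separate the score from morphine, for Gata2 or for the factors below. Over all genes it called 429 in KO libraries and 507 on average, against 2082 and 3089 without the score. In the KO comparison 7 of 9 oligodendrocyte markers were lower (summed 7055 to 8976 CPM in KO morphine, against 10160 to 11690 CPM in KO naive libraries), and their part in the Gata2 values was not tested.

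Gata3, on chromosome 2, had 20.3, 26.1, 23.5 and 26.3 CPM in KO morphine and 21.7, 24.7, 23.5 and 22.8 CPM in KO naive libraries, and 22.2, 22.0, 21.3 and 26.8 CPM in WT morphine and 24.0, 18.1, 18.9 and 24.4 CPM in WT naive libraries. The groups overlapped, and its log2 fold change with morphine was 0.05 ± 0.11 in KO and 0.12 ± 0.11 in wildtype libraries (edgeR adjusted p = 0.813 and 0.565). Tal1, a basic helix-loop-helix factor, had 26.6, 30.9, 31.6 and 31.2 CPM in KO morphine and 30.8, 29.9, 31.1 and 29.3 CPM in KO naive libraries, and 32.6, 30.2, 31.5 and 33.0 CPM in WT morphine and 30.3, 22.9, 23.6 and 34.8 CPM in WT naive libraries. Apart from the lower WT naive 2 and 3 and KO morphine 1, its libraries lay between 29.3 and 34.8 CPM. Its log2 fold change with morphine was -0.01 ± 0.11 in KO and 0.20 ± 0.10 in wildtype (adjusted p = 0.967 and 0.309), and in wildtype it was -0.04 without WT naive 2 and 3 (adjusted p = 0.895). Gata3 shares 155 exon bases with the antisense gene Gm13256, which had 28 counts in all libraries together, and 77 bases with 9230102O04Rik, which had 64.

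Sox14, an SRY-box repressor found in subsets of GABA neurons, had 3.34, 3.02, 3.64 and 2.84 CPM in WT morphine libraries, against 4.17, 5.15, 5.59 and 4.57 CPM in WT naive libraries. Every WT morphine library was below every WT naive library. It fell by 0.60 ± 0.13 on the log2 scale in wildtype (edgeR adjusted p = 0.0108), an adjusted p of 0.0507 without WT naive 3 and 0.219 without WT naive 2 and 3 together (-0.44 ± 0.15). In KO libraries Sox14 had 3.92, 4.28, 3.37 and 3.76 CPM with morphine, against 3.48, 5.11, 4.07 and 4.58 CPM in naïve ones, overlapping groups with a log2 fold change of -0.17 ± 0.13 (adjusted p = 0.454). Averaged over genotypes Sox14 fell by 0.38 ± 0.09 on the log2 scale (edgeR adjusted p = 0.00712), a call that held with any single library left out. Of 25 alternative settings 2 lost this averaged call, among them the fit with the serotonin score. In a fit that included the serotonin score, the wildtype and averaged values were -0.55 ± 0.14 (adjusted p = 0.0577) and -0.30 ± 0.14 (adjusted p = 0.281).

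Pou4f1 and Pou4f2 are close relatives that act in sensory and projection neurons, and neither passed the test in any comparison. Pou4f1, on chromosome 14, had 21.8, 18.9, 19.99 and 19.4 CPM in WT morphine, against 21.6, 30.7, 31.9 and 18.7 CPM in WT naive libraries. Only WT naive 2 and 3 lay above the WT morphine range. Its log2 fold change was -0.37 ± 0.15 in wildtype (edgeR adjusted p = 0.171), and without WT naive 2 and 3 it was -0.00 (adjusted p = 0.997). In KO libraries Pou4f1 had 22.9, 18.1, 19.8 and 19.0 CPM with morphine and 19.7, 22.3, 23.5 and 24.5 CPM in naïve ones (-0.17 ± 0.15, adjusted p = 0.539). Pou4f2, on chromosome 8, spread most in WT naive libraries, where its coefficient of variation was 46.0%. Its levels were 23.0, 17.0, 19.9 and 17.9 CPM in WT morphine, against 17.5, 35.8, 32.8 and 12.6 CPM in WT naive libraries (-0.36 ± 0.30, adjusted p = 0.542), with WT naive 2 and 3 above and WT naive 4 below the WT morphine range. In KO libraries Pou4f2 had 28.2, 16.9, 16.2 and 18.3 CPM with morphine and 18.8, 18.3, 22.0 and 27.9 CPM in naïve ones (-0.11 ± 0.31, adjusted p = 0.871). Pou4f1 also marks the medial habenula, and all 5 habenula markers were tested. They summed to 29.6 to 32.2 CPM in WT morphine, against 27.0 to 28.5 CPM in WT naive libraries. In KO libraries they summed to 26.9 to 48.6 CPM in KO morphine, against 23.5 to 30.9 CPM in KO naive libraries. With morphine 0 of the 5 were called in wildtype and 1 was higher in KO libraries, and 2 were higher on average. Nwd2, at 14.6 to 34.0 CPM, carried most of these sums, and Gng8 and Chrnb4, at most 2.34 and 1.09 CPM, the least; none of the 5 was at 0. Their part in the Pou4f1 values was not tested.

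Pax7, a paired-box factor of the dorsal midbrain, had 9.34, 8.82, 8.06 and 7.93 CPM in WT morphine, against 11.0, 19.2, 19.95 and 11.4 CPM in WT naive libraries. The groups did not overlap, and WT naive 2 and 3 held the higher levels. Pax7 fell by 0.86 ± 0.22 on the log2 scale in wildtype (edgeR adjusted p = 0.0437). That call was lost without any of 11 single libraries (adjusted p up to 0.136, without WT naive 2), while it held without WT naive 1, WT naive 4, KO morphine 1, KO morphine 3 or KO morphine 4; the value was -0.40 ± 0.20 without WT naive 2 and 3 together (adjusted p = 0.51) and -0.57 ± 0.19 with the serotonin score as a covariate (adjusted p = 0.177). In KO libraries Pax7 had 14.0, 10.2, 7.80 and 7.06 CPM with morphine, against 12.1, 14.5, 14.1 and 13.8 CPM in naïve ones. KO morphine 2, 3 and 4 lay below all KO naive libraries, and KO morphine 1 within their range. The log2 fold change was -0.48 ± 0.23 (edgeR adjusted p = 0.202). Without KO morphine 1 and WT naive 2 and 3, picked for their values in these factors, it was -0.73 ± 0.11 (edgeR adjusted p = 0.000334, as a description). Averaged over genotypes Pax7 fell by 0.67 ± 0.16 (adjusted p = 0.0105) and kept the call with any single library left out, but not with the serotonin score as a covariate (-0.23 ± 0.19, adjusted p = 0.571).

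Otx2, a homeodomain factor that sets the midbrain against the hindbrain in the embryo, had 12.7, 11.9, 10.9 and 11.3 CPM in WT morphine, against 12.5, 18.1, 15.2 and 14.8 CPM in WT naive libraries. Only WT naive 1 fell within the WT morphine range, and the log2 fold change was -0.38 ± 0.11 (edgeR adjusted p = 0.0605; 0.0234 by DESeq2 and 0.0378 by limma-voom). In KO libraries Otx2 had 15.6, 12.0, 10.6 and 12.7 CPM with morphine, against 12.5, 12.9, 14.2 and 14.9 CPM in naïve ones (-0.09 ± 0.11, adjusted p = 0.682). Averaged, it fell by 0.23 ± 0.08 (adjusted p = 0.0498), a call lost without any of 13 single libraries, all but WT naive 1, KO naive 1 and KO morphine 1 (adjusted p up to 0.101). Of 25 alternative settings 18 lost this averaged call, among them the fit with the serotonin score. Across settings the averaged value lay between -0.29 and -0.08. Otx2 is also strong in the choroid plexus, whose defining transcripts Ttr, Folr1 and Kcnj13 reached at most 1.82, 3.25 and 1.40 CPM in any library. Of 8 choroid plexus markers 7 were tested and 2 were higher in wildtype with morphine (summed 54.1 to 62.2 CPM in WT morphine, against 44.9 to 52.8 CPM in WT naive libraries). In KO libraries 1 was higher with morphine (summed 57.7 to 61.3 CPM in KO morphine, against 43.7 to 51.6 CPM in KO naive libraries), and 2 were higher on average. Otx2 shares 154 exon bases with Otx2os1 on the other strand, which had 150 counts in all libraries together.

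Meis2, a homeodomain cofactor known in chick as a tectal fate gene, was the highest of the 10 by CPM. It had 68.7, 53.8, 65.2 and 61.0 CPM in WT morphine, against 55.4, 80.2, 74.3 and 59.2 CPM in WT naive libraries (-0.12 ± 0.12, edgeR adjusted p = 0.628). In KO libraries it had 54.3, 68.0, 60.8 and 58.7 CPM with morphine, against 56.0, 57.7, 59.5 and 71.3 CPM in naïve ones (-0.02 ± 0.12, adjusted p = 0.951). The groups overlapped in both genotypes.

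Foxb1, a forkhead factor of the mammillary body, thalamus and midbrain, on chromosome 9, had 1.69, 1.46, 1.78 and 1.65 CPM in WT morphine, against 4.39, 6.43, 6.40 and 3.49 CPM in WT naive libraries. The highest WT morphine library lay below the lowest WT naive library, and the WT naive libraries spread more widely. It fell by 1.65 ± 0.27 on the log2 scale in wildtype (edgeR adjusted p = 0.00262), where the wildtype call held with any single library left out (-1.80 to -1.54). Without WT naive 2 and 3 together the value was -1.24 ± 0.30 (edgeR adjusted p = 0.0638), and with KO morphine 1 also left out it was -1.24 ± 0.15 (adjusted p = 0.000157). KO morphine 1 is not part of the wildtype comparison, so the value stayed and only its SE fell. In KO libraries Foxb1 had 4.14, 1.48, 2.01 and 1.55 CPM with morphine, against 4.64, 5.04, 3.85 and 4.30 CPM in naïve ones. KO morphine 1 lay among the KO naive libraries and the other KO morphine libraries below all of them. The fall was 0.94 ± 0.27 on the log2 scale (edgeR adjusted p = 0.0389). Without KO morphine 1 and WT naive 2 and 3, picked for their values in these factors, it was 1.43 ± 0.15 (edgeR adjusted p = 1.93e-05, as a description). With all libraries but one, the KO call was lost for 11 libraries, among them every KO naive and WT morphine library and KO morphine 2, 3 and 4 (adjusted p up to 0.12). Averaged over genotypes Foxb1 fell by 1.29 ± 0.19 (adjusted p = 0.000427), kept with any single library left out. In a fit that included the serotonin score, the wildtype, KO and averaged values were -1.34 ± 0.25 (adjusted p = 0.0105), -0.31 ± 0.33 (adjusted p = 0.679) and -0.82 ± 0.24 (adjusted p = 0.0755).

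Foxb1 overlaps B230323A14Rik, an antisense gene, over 418 exon bases, and the library kit does not keep the strand, so reads in the shared stretch cannot be told apart. B230323A14Rik had 4.48, 4.73, 5.65 and 3.67 CPM in WT morphine, against 4.92, 8.06, 8.14 and 4.94 CPM in WT naive libraries, and the groups overlapped. In KO libraries B230323A14Rik had 5.54, 4.86, 4.98 and 5.23 CPM with morphine, against 7.56, 7.52, 6.34 and 6.27 CPM in naïve ones, and the groups did not overlap. Its log2 fold change was -0.50 ± 0.16 in wildtype and -0.42 ± 0.17 in KO libraries (edgeR adjusted p = 0.0979 and 0.114), and averaged over genotypes it fell by 0.46 ± 0.12 (adjusted p = 0.0119). Foxb1 is also known in the hypothalamus, and of 8 hypothalamus markers 4 had enough counts to be tested. With morphine 0 of these 4 were called in either genotype and 1 was lower on average. All 8 summed to 5.60 to 6.62 CPM in WT morphine, against 3.86 to 6.67 CPM in WT naive libraries. In KO libraries they summed to 3.92 to 6.34 CPM with morphine, against 4.59 to 5.94 CPM in naïve ones. Their part in the Foxb1 values was not tested.

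With all libraries, no factor passed the test between genotypes. Between KO naive and WT naive libraries 0 of 10 were called, where 0.906% of all genes were, and the largest log2 difference was that of Foxb1 (-0.22 ± 0.25, edgeR adjusted p = 0.746, 95% interval -0.76 to 0.31). Between KO morphine and WT morphine libraries 0 of 10 were called, where 0.53% of all genes were, and Foxb1 again differed most (0.50 ± 0.30, adjusted p = 0.627, 95% interval -0.13 to 1.13). The groups overlapped in all 10 factors in both comparisons, where 8.13% of all genes did not overlap between the naïve groups and 5.27% between the morphine groups. In both comparisons 0 factors had an unadjusted p under 0.05 in this edgeR fit, and DESeq2 and limma-voom called 0. The edgeR fit that included the serotonin score also called 0 factors. There 5 factors had an unadjusted p under 0.05 between the naïve groups and 1 between the morphine groups. Of all 18111 genes 2842 and 2068 did. For the difference between the morphine effects of the genotypes, edgeR called 0 of 10 factors and 0 of all 18111 genes (0.0%), with 2200 genes at an unadjusted p under 0.05; DESeq2 called 107 genes and limma-voom 0, with 0 factors in either. Sox14 was the one factor with an unadjusted p under 0.05 in the edgeR fit without the serotonin score: its change with morphine was 0.43 ± 0.18 higher in KO than in wildtype (edgeR adjusted p = 0.357). The falls of Foxb1 in the 2 genotypes differed by 0.72 ± 0.39 (adjusted p = 0.473). In the edgeR fit that included the score, 6 factors and 2787 of all genes had an unadjusted p under 0.05 for this difference, and 0 were called. With WT naive 2, WT naive 3 and KO morphine 1 left out, Gata2 passed the threshold between the morphine groups and for the difference between the morphine effects. Of 18350 genes tested in that setting, 121 and 4 passed. Those libraries were left out because they stood apart in these same factors, so these values are a description and no test. Gata2 was 0.37 ± 0.07 higher in KO morphine than in WT morphine libraries (edgeR adjusted p = 0.0258). Its change with morphine was 0.72 ± 0.11 higher in KO than in wildtype (edgeR adjusted p = 0.041). With all libraries these Gata2 values were 0.24 ± 0.17 (adjusted p = 0.683) and 0.28 ± 0.23 (adjusted p = 0.663). With only WT naive 2 and 3 left out they were 0.24 ± 0.11 (adjusted p = 0.39) and 0.60 ± 0.17 (adjusted p = 0.455).

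Within groups, libraries with more Gata2 had less Pax7, and libraries with more Pou4f1 had more Pou4f2. Over the 16 libraries, with each group's mean removed, Gata2 and Pax7 gave Pearson's r = -0.94 (permutation p = 0.0009, adjusted p = 0.0338 over 75 relations) and Spearman's rho = -0.89 (permutation p = 0.00088, adjusted p = 0.0409), and r was -0.91 without the 2 libraries farthest from the median of Gata2. Pou4f1 and Pou4f2 gave r = 0.95 (permutation p = 0.00024, adjusted p = 0.018) and rho = 0.88, for which the permutation p of 0.00394 was 0.0739 after adjustment and missed the threshold, with r = 0.92 without the 2 farthest libraries. No other relation passed by Pearson's r: Gata2 with Pou4f1 (r = -0.89), Tal1 with Pou4f2 (-0.89), Gata2 with Gata3 (0.82) and Gata2 with the serotonin score (0.76) had adjusted permutation p of 0.0754 or more. By Spearman's rho, Gata2 with Pou4f1 (-0.91) and Otx2 with Pou4f2 (0.78) also passed (adjusted permutation p = 0.0409 and 0.0433). Without WT naive 2 and 3 neither relation passed (Gata2 with Pax7, r = -0.88, adjusted permutation p = 0.218; Pou4f1 with Pou4f2, r = 0.88, adjusted permutation p = 0.0893, 14 libraries), nor did any relation pass without WT naive 1, WT morphine 1 or KO morphine 1 alone.

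**Figure D3:**
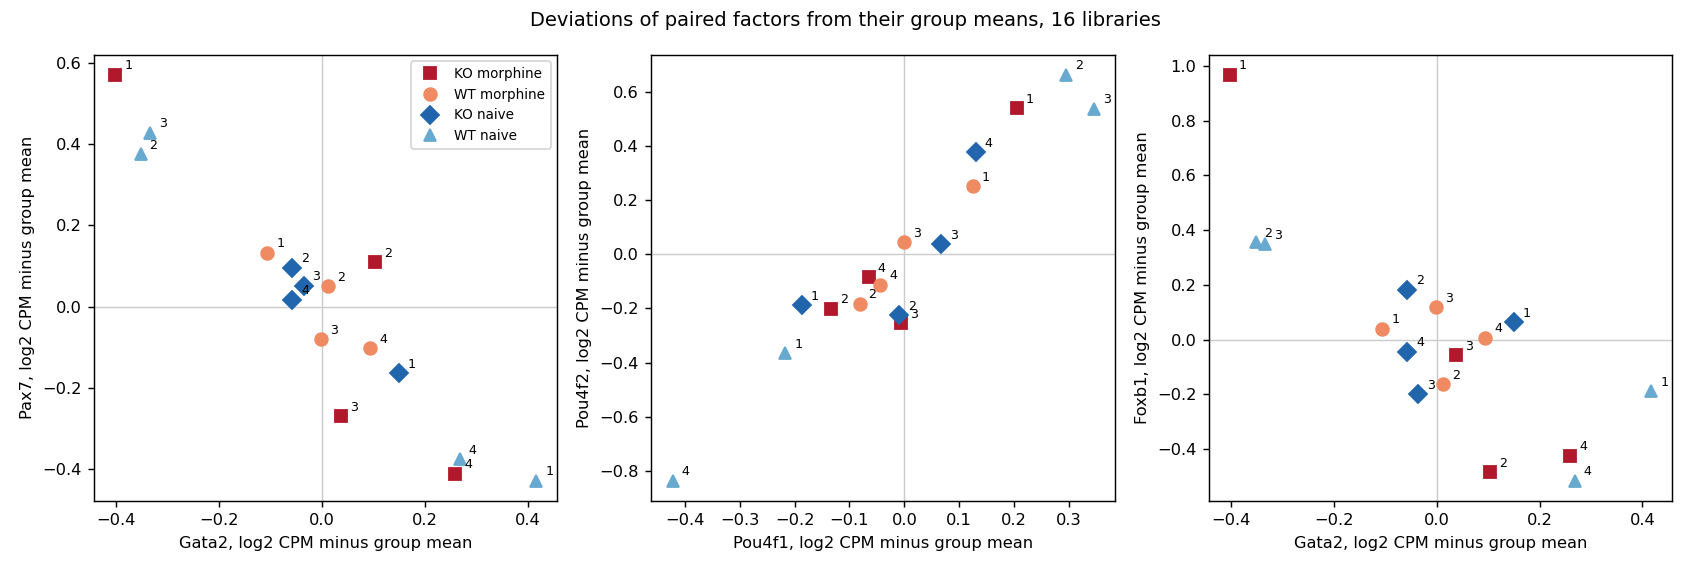
Deviation of paired factors from their group means in log2 CPM, 1 point per library with its replicate number (n = 16). WT naive 2 and 3 and KO morphine 1 lie at the low end of Gata2 and the high end of Pax7 (r = -0.94), and at the high end of both Pou4f1 and Pou4f2 (r = 0.95).

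**Figure D4:**
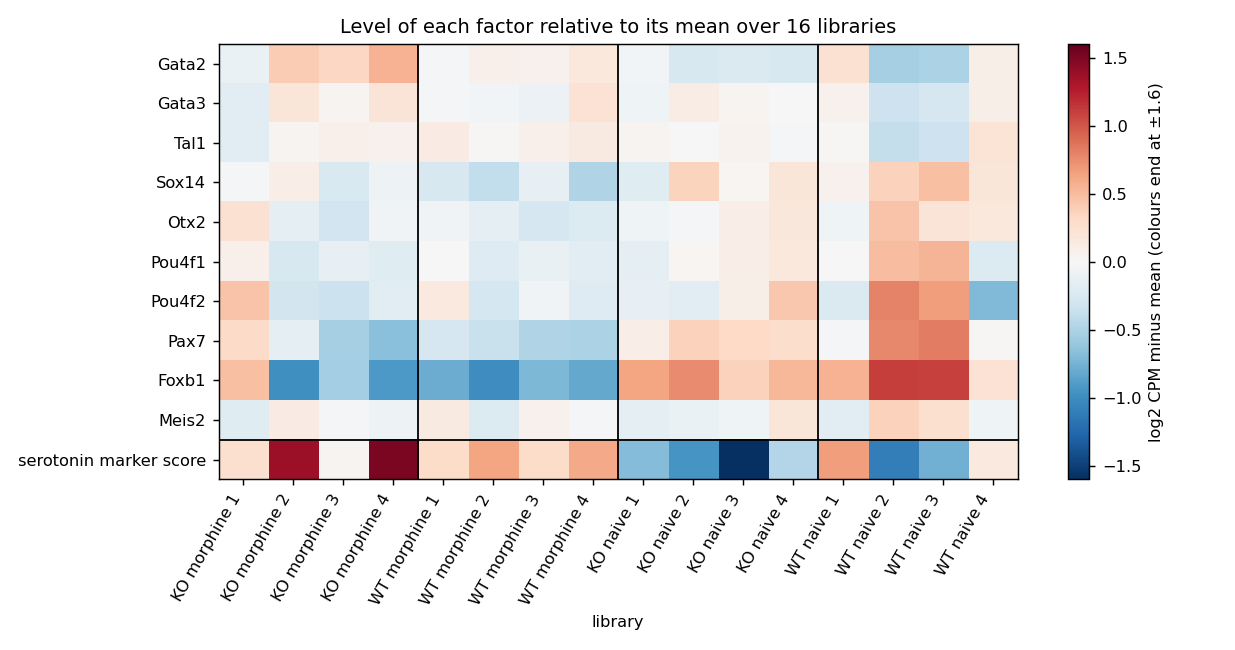
Level of each factor in log2 CPM minus its mean over the 16 libraries (red above, blue below), with the serotonin marker score in the last row. WT naive 2 and 3 are blue in Gata2, Gata3 and Tal1 and red in Pou4f1, Pou4f2, Pax7 and Foxb1, and their serotonin scores are -1.10 and -0.77.

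Because Gata2, Pax7, Pou4f1 and Pou4f2 carried the 2 relations that passed, their promoters are given next, with that of Tal1 as the one with a GATA match. RefSeq (GRCm38.p6) gave promoters of 9 of the 10 factors, all but Foxb1, from 250 bases before to 50 after the start. It listed 2 promoters each for Gata2 and Tal1 and 4 for Otx2, of which only the one listed first was searched and is given, so a match or its lack concerns that promoter alone. The promoters were searched on both strands for AGATAA or TGATAA (the GATA motif, in 18.6% of all 32817 promoters), CAGCTG or CATCTG (an E-box, 30.6%), TAATCC (OTX, 7.06%) and TGACAG (MEIS, 19.2%), and capitals mark a match. Gata2 (chr6:88193641-88193940, plus strand), Pax7 (chr4:139832919-139833218, minus strand) and Pou4f2 (chr8:78436598-78436897, minus strand) held none of these words. Pou4f1 (chr14:104467950-104468249, minus strand) held an E-box and a MEIS word, and Tal1 (chr4:115056176-115056475, plus strand) a GATA word and an E-box. GC content was 69.3% for Gata2, 63.7% for Pax7, 78.3% for Pou4f1, 69.7% for Pou4f2 and 50.7% for Tal1, against a median of 52.7% over all promoters.
Gata2: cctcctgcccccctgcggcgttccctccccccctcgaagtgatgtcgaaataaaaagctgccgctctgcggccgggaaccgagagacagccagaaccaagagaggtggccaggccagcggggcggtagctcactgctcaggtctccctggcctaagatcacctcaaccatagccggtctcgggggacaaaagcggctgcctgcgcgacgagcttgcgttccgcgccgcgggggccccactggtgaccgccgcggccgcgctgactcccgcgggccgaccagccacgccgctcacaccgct
Pax7: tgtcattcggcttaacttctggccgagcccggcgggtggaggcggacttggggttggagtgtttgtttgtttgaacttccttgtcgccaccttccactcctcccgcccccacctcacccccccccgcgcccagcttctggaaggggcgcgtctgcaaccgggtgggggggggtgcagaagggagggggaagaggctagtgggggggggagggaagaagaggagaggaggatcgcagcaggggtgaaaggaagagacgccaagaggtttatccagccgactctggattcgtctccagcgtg
Pou4f1: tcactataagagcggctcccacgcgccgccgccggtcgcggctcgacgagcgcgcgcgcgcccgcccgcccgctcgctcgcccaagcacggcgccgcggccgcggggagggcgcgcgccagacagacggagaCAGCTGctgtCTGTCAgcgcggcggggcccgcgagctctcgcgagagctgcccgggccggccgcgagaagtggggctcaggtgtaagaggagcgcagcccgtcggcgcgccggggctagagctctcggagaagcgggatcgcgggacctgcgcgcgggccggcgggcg
Pou4f2: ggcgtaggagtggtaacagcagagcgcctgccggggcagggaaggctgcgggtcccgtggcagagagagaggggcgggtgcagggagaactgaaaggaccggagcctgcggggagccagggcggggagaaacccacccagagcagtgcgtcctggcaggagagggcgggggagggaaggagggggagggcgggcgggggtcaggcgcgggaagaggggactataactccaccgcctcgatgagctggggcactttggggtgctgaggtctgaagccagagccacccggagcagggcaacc
Tal1: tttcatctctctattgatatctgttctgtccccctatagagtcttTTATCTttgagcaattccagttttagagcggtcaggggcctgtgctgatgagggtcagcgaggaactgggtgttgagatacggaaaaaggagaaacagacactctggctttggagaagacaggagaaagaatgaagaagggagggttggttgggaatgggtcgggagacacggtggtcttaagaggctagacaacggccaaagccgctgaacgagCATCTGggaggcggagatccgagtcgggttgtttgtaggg

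The genes whose deviations from group means were most like those of the called factors, by Pearson's r over 16 libraries and as a description, were Lancl3 (0.96), Ret (0.95) and Htr1d (0.95) for Gata2, and Zfp787 (0.83), Cacnb4 (0.82) and Kbtbd6 (0.80) for Sox14. For Otx2 they were Ctnnb1 (0.90), Prim1 (0.88) and Gm24888 (0.88), for Pax7 Rxfp2 (0.94), Fam19a2 (0.92) and Ctnnb1 (0.92), and for Foxb1 Setd6 (0.89), Ptch1 (0.88) and Sirpa (0.88). All these values share the same libraries.

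Among 16 tested partners of the GATA-TAL factors and genes of the midbrain GABA programme, 4 fell and 0 rose with morphine in wildtype, and 2 fell and 0 rose in KO libraries; the medians were -0.09 and -0.05, against -0.01 and -0.00 over all genes. Over all tested genes 2.07% were called lower in wildtype and 5.83% in KO libraries. Without WT naive 2 and 3 the wildtype count of these partners was 2. In wildtype the E protein gene Tcf3 fell by 0.25 ± 0.05 (edgeR adjusted p = 0.00576) and Nkx2-2 by 0.54 ± 0.13 (adjusted p = 0.0253). In KO libraries Lmo2, a bridge between TAL and GATA proteins, fell by 0.45 ± 0.07 (adjusted p = 0.000564) and Nkx2-2 by 0.54 ± 0.13 (adjusted p = 0.0149). Lmo2 and Tal1 are also known in blood vessels, and of 10 endothelial markers 4 fell in each genotype: their summed level was 151 to 171 CPM in WT morphine, against 179.8 to 224.5 CPM in WT naive libraries, and 143 to 198 CPM in KO morphine, against 207 to 233 CPM in KO naive libraries. Of its defining markers, Cldn5 fell by 1.09 ± 0.16 and Kdr by 0.96 ± 0.13 in wildtype (adjusted p = 0.00121 and 0.000235), and Cdh5 was at -0.43 ± 0.18 (adjusted p = 0.201). Without WT naive 2 and 3, 2 of the 10 endothelial markers fell in wildtype. With each group's mean removed, Tal1 and the endothelial marker score gave Pearson's r = 0.02 over the 16 libraries (adjusted permutation p = 0.947). The part of blood vessels in the falls of these partners was not tested.

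Over all tested genes 4.41% were called in wildtype and 11.5% in KO libraries, and 2.07% and 5.83% were called lower. Among 34 tested factors of midbrain territory and glutamate neurons, Nkx6-2 alone fell in wildtype (-0.55 ± 0.12, edgeR adjusted p = 0.0155), while 5 rose and 4 fell in KO libraries. En1, a midbrain-hindbrain homeodomain factor, rose by 1.66 ± 0.33 (adjusted p = 0.00735), Lmx1b, which dopamine and serotonin neurons need, by 1.62 ± 0.34 (adjusted p = 0.01) and Ebf2 by 0.53 ± 0.12 (adjusted p = 0.0118). Onecut2 (-0.38 ± 0.06, adjusted p = 0.000813), Nkx6-2 (-0.73 ± 0.12, adjusted p = 0.00188) and Onecut3 (-0.78 ± 0.18, adjusted p = 0.0106) fell. In a fit that included the serotonin score, 0 rose and 1 fell in KO libraries, and without WT naive 2, WT naive 3 and KO morphine 1, when 35 were tested, 8 rose and 8 fell. Of 11 tested paralogs of the 10 factors, Sox2 (-0.72 ± 0.14, adjusted p = 0.0108), Lyl1, a relative of Tal1 (-0.72 ± 0.17, adjusted p = 0.0253), and Sox1 (-0.43 ± 0.10, adjusted p = 0.0273) fell in wildtype and 0 were called in KO libraries; without WT naive 2 and 3 the wildtype count of paralogs was 0.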

How the data were processed

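Per the labels' protocols, RNA of pooled periaqueductal gray punches was extracted with TRIzol and made into libraries with the TruSeq RNA v2 kit, which keeps no strand. Each deposited file gives raw read counts by gene, produced by the authors with HTSeq on mm10, per the submitters' processing notes, which also list limma. Aligner, annotation release and strand option: not given in the sources used here. Tallies of unassigned reads, 38.2 to 40.6% of all, were left out. Symbols, exon lengths and overlaps came from GENCODE M21 (GRCm38); 37607 of 38924 identifiers matched.

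The members and gene lists were chosen with earlier results of these data known. Low genes were removed by filterByExpr (minimum count 10). After TMM scaling, edgeR's robust quasi-likelihood test (version 4.0.16, under R 4.3.3) was run in 1 fit to the 16 libraries with a coefficient per group, for 6 comparisons, with Benjamini-Hochberg adjustment over 18111 genes. The fit was tested on simulated data. Values are log2 fold changes ± SE and TMM-scaled CPM. Correlations used log2 CPM (prior count 2) centred on group means, with two-sided permutation within groups (100000 resamples). Alternatives were the Wald test of DESeq2 (1.42.0), limma-voom (3.58.1), size factors from DESeq2, an unfiltered table, a stricter filter of 1 CPM in at least 8 libraries, only the groups compared, a replicate block, the serotonin score as a covariate and leaving out each library; leaving out WT naive 2 and 3, without and with KO morphine 1, was chosen after seeing the data. Besides the 10 factors, up to 3 called genes with the smallest p in each direction could be named per list and comparison. Some genes that this rule would name are not reported here. No 2 replicates looked like 1 library deposited again (lowest chi-square per gene 3.52). Labels call the libraries biological replicates.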

Additional observations from a re-analysis of the deposited data

Results flagged for a closer look

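In 4 of 40 sets of 4 libraries (10 factors in 4 groups), 1 library lay far from the other libraries of its group, with a gap to its neighbour of more than the critical share (Dixon's, 95%) of the group's range; chance gives about 1 in 20 such sets. Tal1 in KO morphine libraries had a ratio of 0.849, from the low 26.6 CPM of KO morphine 1, and Pou4f2 in KO morphine libraries one of 0.831, from the high 28.2 CPM of the same library. Gata2 in KO naive libraries had a ratio of 0.898, from the 13.7 CPM of KO naive 1. Gata3 in WT morphine libraries had a ratio of 0.833, from the 26.8 CPM of WT morphine 4.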

How the results depend on the processing

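Of the 10 factors, the 3 called with morphine in wildtype became 1 with the serotonin score as a covariate, 0 without WT naive 2 and 3, 1 with KO morphine 1 left out too, 2 without a filter, with the replicate block or with only the groups compared, and 4 with DESeq2's Wald test or limma-voom; leaving out 1 library gave 1 to 5. The 1 called in KO libraries became 0 without a filter or with the serotonin score, 2 with the stricter filter, with DESeq2's Wald test or without WT naive 2 and 3, and 3 with KO morphine 1 left out too; leaving out 1 library gave 0 to 2. The 5 called on average became 3 without a filter, with the replicate block or without WT naive 2 and 3, 0 with the serotonin score, 4 with DESeq2's size factors or with KO morphine 1 left out too, and 6 with DESeq2's Wald test; leaving out 1 library gave 3 to 5. Over all genes, 352 were called in wildtype, 429 in KO libraries and 507 on average with the serotonin score, against 798, 2082 and 3089 without it. These counts without WT naive 2 and 3 were 252, 2474 and 2247. Without WT naive 2, WT naive 3 and KO morphine 1, Gata2 was the 1 factor called between KO morphine and WT morphine and the 1 called for the interaction. Those libraries were picked for their values in these factors, so this is a description. Leaving out 1 library gave 0 to 0 for both, and for KO naive against WT naive. The 2 correlations called became 40 without centring on the group, 26 with the replicate block and 0 without WT naive 2 and 3, with 0 to 4 when 1 library was left out. Turned directions were looked for only in factors called in at least 1 setting of the comparison, so other factors may have turned too. Among those looked at, directions turned for Tal1 in wildtype (-0.0383 without WT naive 2 and 3, -0.0388 with KO morphine 1 left out too) and, with the serotonin score, for Gata2 in KO libraries (-0.0458), Gata2 in the interaction (-0.0754) and on average (-0.0081), Pax7 in KO libraries (0.1155) and Pou4f1 on average (0.0344). The cause of these changes was not tested. Deviations of libraries with the same replicate number correlated at -0.283 to 0.133 (3 of 24 over 0.1). Libraries with different numbers were not set beside them, so whether the numbers pair libraries was not tested. The replicate block left 3 of 5 averaged calls. Foxb1, at 28 to 331 counts per library, and Sox14, at 67 to 283, carried the fewest counts of the 10.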
